A study of Homo sapiens with 6 samples.

Results

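Solute carrier (SLC) genes encode membrane proteins that move sugars, amino acids, lactate, metals, nucleosides and other small molecules into, out of and between the compartments of a cell. The genes described here were selected on their measured values: every gene whose symbol had the form SLC, a number, A and a number, and whose mean normalized read count over the 6 libraries was at least 50. This rule kept 183 of 191 SLC rows in the table, which listed 22152 genes in all. Of the 8 rows below the floor, 1 was a second SLC25A10 row listed at 0 in every library. The rule used the mean level and not the difference between the groups.

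The study asked how a mimic of miR-21-3p, the passenger strand of the miR-21 hairpin, changed the RNA of HaCaT cells, a spontaneously immortalized human keratinocyte line. Cells were transfected with 1 nM of a negative control mimic (NC mimic) or 1 nM of miR-21-3p mimic, and RNA, polyadenylated according to the labels, was sequenced 48 h later in 3 biological replicates of each group. The cells were a single line, so the groups shared all other features of it. The values were read counts divided by a size factor per library, rounded to 3 significant digits, and the libraries held 24406408, 24527245 and 26176101 recovered reads with the NC mimic and 24804418, 24974095 and 27962619 with the miR-21-3p mimic.

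Carriers are grouped by what they move. The SLC2 family takes up glucose, the SLC1, SLC7 and SLC38 families move amino acids, SLC16 members carry lactate together with a proton, SLC30 members move zinc out of the cytosol and SLC39 members move it in, and most SLC25 members sit in the inner mitochondrial membrane. Keratinocytes depend on glucose and amino acid uptake for growth, and zinc carriers are known for their part in skin disease.

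The keratinocyte label was checked on marker genes. Of 7 keratinocyte markers 6 were listed, and KRT5, the basal keratin and the most abundant of them, stood at 139000, 123000 and 130000 with the NC mimic and at 135000, 139000 and 125000 with the miR-21-3p mimic. The listed keratinocyte markers summed to 270290, 258180 and 268980 with the NC mimic and to 276260, 284720 and 264660 with the miR-21-3p mimic. KRT6A, the keratin of activated keratinocytes, was the keratinocyte marker called higher, at 16800, 17100 and 16500 against 21500, 20700 and 21700 (limma, log2 fold change 0.34, adjusted p = 0.00203). TP63 went the other way without a call, at 7490, 7180 and 7680 against 6860, 7120 and 6460 (limma, log2 fold change -0.13, adjusted p = 0.102). The log2 fold changes of the uncalled KRT14, KRT5, SFN and DSP were -0.071, 0.026, 0.15 and 0.074. Of the other markers, 1 of 6 fibroblast genes, 1 of 4 melanocyte genes, 0 of 3 leukocyte genes and 2 of 3 endothelial genes were listed. CDH5, an endothelial cadherin, was called lower (477, 286 and 393 against 165, 178 and 122, limma, adjusted p = 0.00258). VWF, the other listed endothelial gene, was not called, at 720, 801 and 726 against 712, 747 and 761 (limma, adjusted p = 0.893). The fibroblast gene COL1A1 was not called, at 560, 390 and 478 against 372, 378 and 364, without overlap (limma, adjusted p = 0.0635). The melanocyte gene PMEL was not called, and its groups overlapped. The markers without a row were not analysed here. In bulk RNA, fewer cells of a type and less RNA per cell cannot be told apart, and the part of these markers in the results on carriers was not tested.

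Of the 183 SLC genes, 13 were called higher and 7 lower with the miR-21-3p mimic (limma on log2(value + 1), adjusted p under 0.05). Over all 14782 genes tested, 6.15% were called higher and 4.67% lower, and among the 13619 genes that had a mean of at least 50 the shares were 6.59% and 4.88%. The SLC shares were 7.10% higher and 3.83% lower, near these backgrounds. The median log2 fold change was -0.0041 over the SLC genes and 0.0045 over all genes tested. In 35 SLC genes every miR-21-3p mimic library was above every NC mimic library, and in 31 every one was below, which compares with 17.2% and 14.9% of all genes that had a mean of at least 50.

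The number of calls depended strongly on single libraries. Without NC replicate 1, 9 SLC genes were called higher and 2 lower. Without NC replicate 2 the counts were 22 and 22, and without NC replicate 3 they were 1 and 3. Leaving out miR-21-3p replicate 1 gave 1 and 2, leaving out miR-21-3p replicate 2 gave 22 and 9, and leaving out miR-21-3p replicate 3 gave 4 and 3. Over all genes tested, the counts in the same order were 316 and 229, 1629 and 1334, 98 and 81, 147 and 132, 899 and 641, and 203 and 165, beside 909 and 691 with all libraries. The counts over all genes thus moved in the same direction as the SLC counts, except without miR-21-3p replicate 2, where they fell slightly. Over 13619 genes, the SD of log2 differences of NC replicate 2 was 0.22 from NC replicate 1 and 0.18 from NC replicate 3, beside 0.20, 0.19 and 0.21 from miR-21-3p replicates 1, 2 and 3. Its distances to the miR-21-3p mimic libraries thus lay between its distances to the libraries of its own group.

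**Figure D1:**
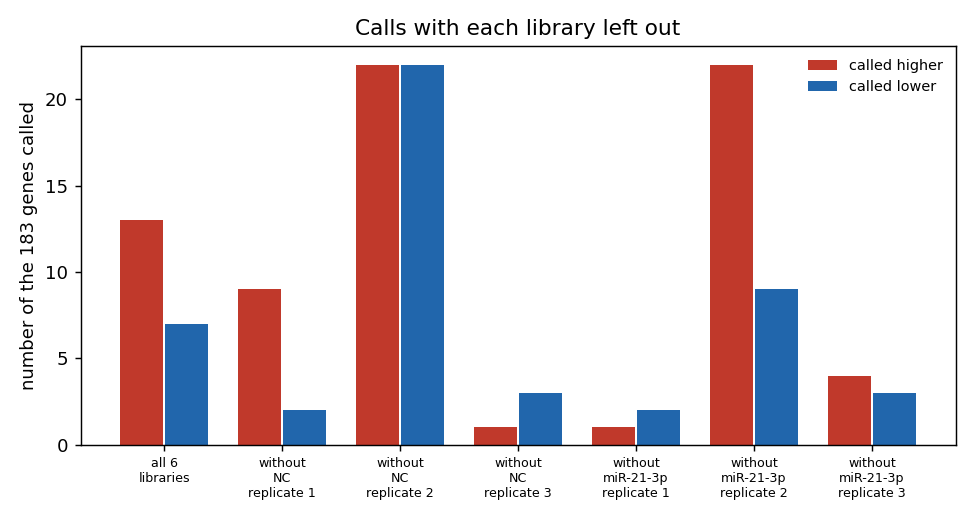
Number of the 183 SLC genes called higher (red) and lower (blue) by limma, on the y axis, with all 6 libraries and with each library left out, on the x axis. The counts were 13 and 7 with all libraries, 22 and 22 without NC replicate 2, and 1 and 2 without miR-21-3p replicate 1. Over all genes tested they were 909 and 691, 1629 and 1334, and 147 and 132.

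By substrate family, 0 of 9 glucose genes, 2 of 23 amino acid genes, 1 of 3 lactate genes, 0 of 16 zinc genes and 1 of 36 SLC25 genes were called higher by limma, beside 6.15% of all genes tested. None of these families had a member called lower by limma, beside 4.67% of all genes tested, and at an unadjusted p under 0.05 limma gave 0, 2, 1, 3 and 4 lower in the same order. Over all 14782 genes tested, 15.3% were higher and 13.2% lower at that threshold, which is the background for every unadjusted count given here. Lactate gave 0 lower calls by edgeR and by DESeq2 as well. The other 96 SLC genes held 9 higher and 7 lower calls. Among these, the 11 organic ion genes (SLC22 and SLC47), a class named here after its values were seen, all had a log2 fold change below 0. Of all 14782 genes tested, 7235 lay below 0. The median of the 11 was -0.32, and 2 were called lower, but both calls were lost without NC replicate 1. SLC22A14, a member of the 11, reached the floor of 50 only with the NC mimic (means 60.7 and 43.5). In 5 of the 11 every miR-21-3p mimic library was below every NC mimic library, against 14.9% of all genes that had a mean of at least 50. Their summed normalized reads were 7269, 6086 and 6509 with the NC mimic and 5646, 5854 and 5558 with the miR-21-3p mimic, NC replicate 1 being the highest. Other classes went other ways. Of 9 genes for iron, copper, magnesium, phosphate and other metals, 2 were called higher and 2 lower. Of 11 genes for fatty acids, choline and lipids, 2 were called higher and 0 lower. In the named families the median log2 fold changes were 0.027 for glucose, 0.039 for amino acids, 0.075 for lactate, -0.019 for zinc and 0.021 for SLC25 genes, beside 0.0045 over all genes tested.

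**Figure D2:**
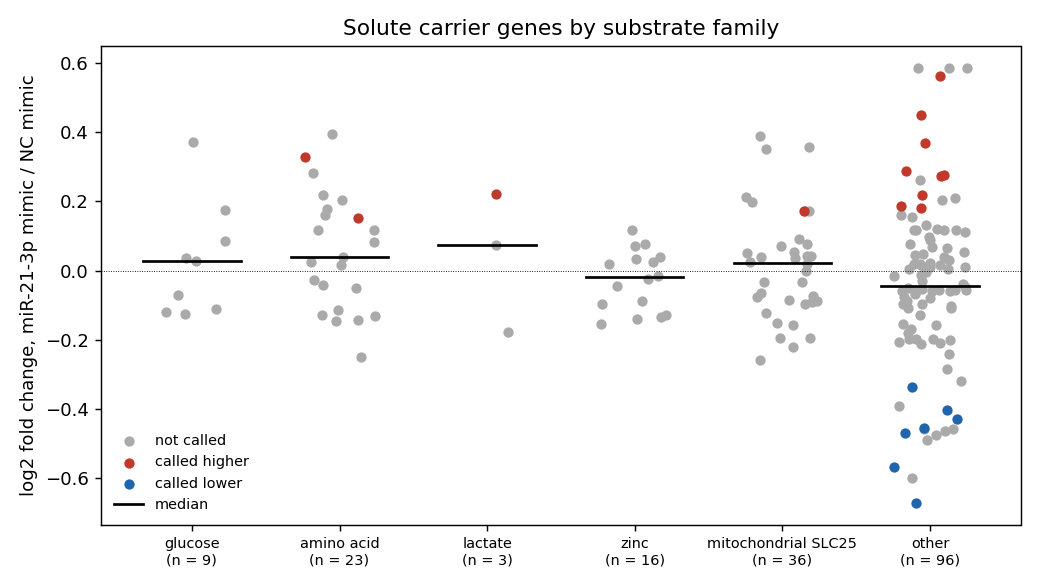
Log2 fold change of each SLC gene, miR-21-3p mimic over NC mimic on the log2(value + 1) scale (y axis), by substrate family (x axis). Red and blue points were called higher and lower by limma, grey points were not called, and black bars are medians. By limma with all libraries, the few calls in the 5 named families were all higher, and the 7 lower calls lay among the other SLC genes. Over all genes tested, 6.15% were called higher and 4.67% lower by limma. The split was not kept in every setting: DESeq2 called 0 SLC25 genes higher and 1 lower, and limma called SLC16A3 lower without NC replicate 2.

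Promoter windows of 300 bases around annotated starts (RefSeq, GRCh38.p14) are shown for the called genes of the named families that had an entry, and for SLC11A2, the gene with the smallest p. Of the 183 genes 143 had an entry, as had 16 of the 20 called genes. Both strands were searched for the E-box CACGTG and for TGATGNAA, an element known from amino acid response genes. Among 35116 windows of this length, 7.26% held CACGTG and 3.62% held TGATGNAA. Over the windows of the SLC genes, 29 of 217 held CACGTG and 12 of 217 held TGATGNAA. The genes called higher had 17 windows, 3 with each motif, and those called lower had 11, 1 with CACGTG and 2 with TGATGNAA. Capitals mark TGATGNAA or its reverse complement; SLC1A4 had 2 windows and SLC11A2 had 4, of which the one with a match is shown. These windows lay at chr2:64989149-64989448 (plus strand, SLC1A4), chr13:29595639-29595938 (minus strand, SLC7A1), chr17:4939997-4940296 (minus strand, SLC25A11) and chr12:51028837-51029136 (minus strand, SLC11A2), and each is written 5′ to 3′ on the strand of its gene.
SLC1A4: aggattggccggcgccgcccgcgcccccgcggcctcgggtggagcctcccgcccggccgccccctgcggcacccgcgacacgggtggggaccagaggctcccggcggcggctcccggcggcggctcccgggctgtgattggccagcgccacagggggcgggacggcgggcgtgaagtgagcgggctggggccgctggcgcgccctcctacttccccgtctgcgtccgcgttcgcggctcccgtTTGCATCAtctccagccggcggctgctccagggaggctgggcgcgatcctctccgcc
SLC7A1: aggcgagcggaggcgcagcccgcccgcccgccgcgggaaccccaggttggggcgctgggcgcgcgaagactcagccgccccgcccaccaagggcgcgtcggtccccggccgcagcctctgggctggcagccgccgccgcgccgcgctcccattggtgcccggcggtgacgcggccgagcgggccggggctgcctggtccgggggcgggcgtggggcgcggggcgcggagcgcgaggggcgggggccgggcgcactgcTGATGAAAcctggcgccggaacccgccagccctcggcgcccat
SLC25A11: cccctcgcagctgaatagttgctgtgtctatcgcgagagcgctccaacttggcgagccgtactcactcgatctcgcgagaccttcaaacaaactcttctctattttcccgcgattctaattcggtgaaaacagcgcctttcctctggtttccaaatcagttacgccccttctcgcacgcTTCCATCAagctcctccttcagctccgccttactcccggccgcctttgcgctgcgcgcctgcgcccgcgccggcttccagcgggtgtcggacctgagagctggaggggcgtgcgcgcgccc
SLC11A2: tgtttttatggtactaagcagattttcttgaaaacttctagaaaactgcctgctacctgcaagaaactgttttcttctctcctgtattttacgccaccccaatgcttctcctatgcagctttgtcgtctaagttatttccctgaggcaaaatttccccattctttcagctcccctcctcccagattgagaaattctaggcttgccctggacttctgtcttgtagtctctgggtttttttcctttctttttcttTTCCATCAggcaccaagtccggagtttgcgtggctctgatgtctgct

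A match is a description of the letters only. SLC1A4, SLC7A1 and SLC25A11 were called higher and SLC11A2 lower, so windows with the element belonged to genes called in both directions.

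Glucose carriers gave 0 calls by limma, edgeR or DESeq2. At an unadjusted p under 0.05, limma gave 1 higher and 0 lower of the 9. SLC2A1, the main glucose carrier of keratinocytes, stood at 5730, 5480 and 5530 with the NC mimic and at 5940, 5940 and 5870 with the miR-21-3p mimic. The groups did not overlap, but the log2 fold change was 0.085 (95% interval -0.0046 to 0.17) and limma's adjusted p was 0.197. The gene with the unadjusted call was SLC2A6, chosen here after its values were seen, at 168, 183 and 160 against 216, 188 and 264 (limma, adjusted p = 0.0741). It was called without NC replicate 2 and without miR-21-3p replicate 2, and adjusted p ran from 0.0327 to 0.272 over the 13 other settings, these 2 included. SLC2A3 was not analysed here.

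Among amino acid carriers, SLC1A4, an exchanger of small neutral amino acids, stood at 849, 795 and 810 with the NC mimic and at 1040, 1020 and 1020 with the miR-21-3p mimic. All 3 miR-21-3p mimic libraries were above the NC mimic libraries, with a gap wider than the range within either group. The log2 fold change was 0.33 (SE 0.055, limma, adjusted p = 0.00662), and the call held under all 13 other settings tried, where adjusted p ran from 6.63e-04 to 0.0483. SLC7A1, a cationic amino acid carrier, stood at 18400, 18400 and 18600 against 20300, 21100 and 20200. These groups did not overlap either, and the change was small, with a log2 fold change of 0.15 (SE 0.043, limma, adjusted p = 0.0416). The SLC7A1 call was lost when NC replicate 1 or 3 or any miR-21-3p replicate was left out. It was also lost with no filter on low values and with the replicate number as a block. Over the 13 other settings adjusted p reached 0.137.

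The other well known amino acid carriers that were followed were not called. SLC7A5, which exchanges large neutral amino acids, had a mean of 18800 ± 361 (SD, n = 3) with the NC mimic and 18167 ± 603 (SD, n = 3) with the miR-21-3p mimic. Its partner chain SLC3A2 stood at 5450, 5870 and 5640 against 6110, 5820 and 6460, so that the groups overlapped, with a log2 fold change of 0.12 (95% interval 0.0082 to 0.22, limma, adjusted p = 0.146). The glutamine carrier SLC1A5 stood at 5940, 5680 and 5550 against 5980, 5790 and 5870, also overlapping (limma, adjusted p = 0.589). SLC38A2, a sodium-coupled carrier of neutral amino acids, ranged more widely within each group, at 19300, 16500 and 17500 against 20400, 18700 and 17300. The cystine carrier SLC7A11 stood at 592, 773 and 677 against 872, 652 and 859, with miR-21-3p replicate 2 inside the NC range (limma, adjusted p = 0.228). It passed the test without NC replicate 2 or without miR-21-3p replicate 2, and adjusted p ran from 0.0435 to 0.577 over the 13 other settings, these 2 included. At an unadjusted p under 0.05, 8 of the 23 amino acid genes were higher and 2 lower by limma (15.3% and 13.2% of all genes), while 0 were called lower by limma, edgeR or DESeq2.

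Of the 5 genes of the amino acid response that were listed beside the carriers, 1 was called higher and 0 lower, beside 6.15% and 4.67% of all genes tested. ASNS, asparagine synthetase, stood at 388, 526 and 448 with the NC mimic and at 703, 578 and 738 with the miR-21-3p mimic. The groups were separate, with NC replicate 2 and miR-21-3p replicate 2 nearest to each other (limma, log2 fold change 0.57, adjusted p = 0.0114). The call was lost without NC replicate 3 or miR-21-3p replicates 1 or 3, with adjusted p up to 0.0639. ATF4, a transcription factor of that response, was not called at 4670, 4610 and 4410 against 5050, 4780 and 4610.

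The lactate family held 3 genes. SLC16A1, the widely expressed monocarboxylate carrier, stood at 4840, 4900 and 4930 with the NC mimic and at 5840, 5890 and 5380 with the miR-21-3p mimic. The NC mimic libraries lay close together and below all miR-21-3p mimic libraries, of which replicate 3 was the lowest. The log2 fold change was 0.22 (SE 0.046, limma, adjusted p = 0.0145), and the call was lost without NC replicate 3 and without miR-21-3p replicate 1 (highest adjusted p over the 13 other settings 0.0818). SLC16A3, a carrier known for lactate export, had the opposite sign, at 1810, 1550 and 1720 against 1520, 1580 and 1390, and its groups overlapped (limma, log2 fold change -0.18, adjusted p = 0.103). It was called lower in 1 setting, without NC replicate 2 (adjusted p = 0.0150), with adjusted p from 0.0804 to 0.324 in the remaining 12. SLC16A7 was not called, at 171, 177 and 169 against 183, 174 and 188.

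Of 8 glucose and lactate partner genes, 2 were called higher and 1 lower, beside 6.15% and 4.67% of all genes tested. LDHA, a lactate dehydrogenase chain, stood at 9700, 10900 and 10100 against 12900, 12100 and 14000 (limma, log2 fold change 0.34, adjusted p = 0.00762). LDHB, the other main chain, stood at 2430, 2590 and 2450 against 3000, 2830 and 3040 (limma, log2 fold change 0.25, adjusted p = 0.0111). Both chains were higher in all 3 miR-21-3p mimic libraries than in any NC mimic library, although the LDHA call was lost without NC replicate 3 (highest adjusted p 0.0505) and the LDHB call without NC replicate 3 or miR-21-3p replicates 1 or 3 (highest adjusted p 0.0679). TXNIP, a protein known to limit glucose uptake, stood at 18900, 15600 and 19700 against 13000, 15200 and 11800 (limma, log2 fold change -0.44, adjusted p = 0.0151). Its groups were separate, with NC replicate 2 and miR-21-3p replicate 2 close together, and the call was lost without NC replicates 1 or 3 or miR-21-3p replicates 1 or 3 (highest adjusted p 0.0822). BSG, the chaperone chain of SLC16A1, was not called (limma, adjusted p = 0.552).

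Zinc carriers gave 0 calls of 16 by limma, edgeR or DESeq2. At an unadjusted p under 0.05, limma gave 0 higher and 3 lower, and DESeq2 gave 0 in either direction. SLC30A1, the zinc exporter of the plasma membrane, stood at 1880, 1880 and 2000 against 1930, 1890 and 1880. Its values overlapped, and the 95% interval of the log2 fold change ran from -0.12 to 0.089. SLC39A10, a zinc importer, stood at 361, 411 and 421 against 401, 393 and 460 (limma, adjusted p = 0.635). Log2 fold changes in the family ran from -0.15 to 0.12. Of 4 zinc partner genes measured, which were metallothioneins and MTF1, 0 were called by limma, edgeR or DESeq2, and 0 passed an unadjusted p under 0.05.

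In the mitochondrial SLC25 family 1 of 36 genes was called higher and 0 lower, beside 6.15% and 4.67% of all genes tested. SLC25A11, which exchanges oxoglutarate for malate, stood at 1690, 1730 and 1740 with the NC mimic and at 1910, 1900 and 2010 with the miR-21-3p mimic. The groups were separate and each was narrow (limma, log2 fold change 0.17, SE 0.047, adjusted p = 0.0372). The call was lost with DESeq2, with the replicate number as a block, and without NC replicates 1 or 3 or miR-21-3p replicates 1 or 3. Over the 13 other settings adjusted p reached 0.139. DESeq2 called SLC25A23 lower instead, a gene chosen here after its values were seen, which stood at 4030, 3220 and 3650 against 3040, 3350 and 2720, with overlapping groups (limma, adjusted p = 0.0655, and from 0.00415 to 0.228 over the 13 other settings). It was also called lower by limma without NC replicate 2 and without miR-21-3p replicate 2. At an unadjusted p under 0.05, limma gave 7 higher and 4 lower of the 36, near the 15.3% and 13.2% of all genes.

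The well known carriers followed in this family were not called. SLC25A5, an exchanger of ADP and ATP, stood at 13300, 13900 and 13000 against 14200, 14000 and 14600 (limma, adjusted p = 0.203). SLC25A3, the phosphate carrier, stood at 12100, 12300 and 12000 against 11600, 11500 and 11700 (limma, adjusted p = 0.317). Neither pair of groups overlapped, and the log2 fold changes were 0.091 and -0.065. SLC25A5 and SLC7A5 have pseudogene copies, so their counts are uncertain where reads could be shared. SLC25A6 was listed only as a row with a mean of 0.343, below the floor, and is not described further. Of 13 partner genes for mitochondrial import and outer membrane passage, 0 were called by limma, edgeR or DESeq2, while 5 were higher and 0 lower at an unadjusted p under 0.05 by limma (15.3% and 13.2% of all genes).

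Outside these families, SLC11A2, the iron carrier of the plasma membrane and endosomes, had the smallest p of all SLC genes. It stood at 2120, 2230 and 2190 with the NC mimic and at 1510, 1570 and 1640 with the miR-21-3p mimic. All miR-21-3p mimic libraries lay far below the NC mimic libraries. The log2 fold change was -0.47 (SE 0.050, limma, adjusted p = 9.06e-04), and the gene was called lower under all 13 other settings, with adjusted p up to 0.0160. SLC15A2, a carrier of small peptides, stood at 155, 143 and 129 against 87.7, 94.2 and 84.4, with no overlap (limma, log2 fold change -0.67, adjusted p = 0.00886). It too was called lower under all 13 other settings, with adjusted p from 0.00309 to 0.0483.

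**Figure D3:**
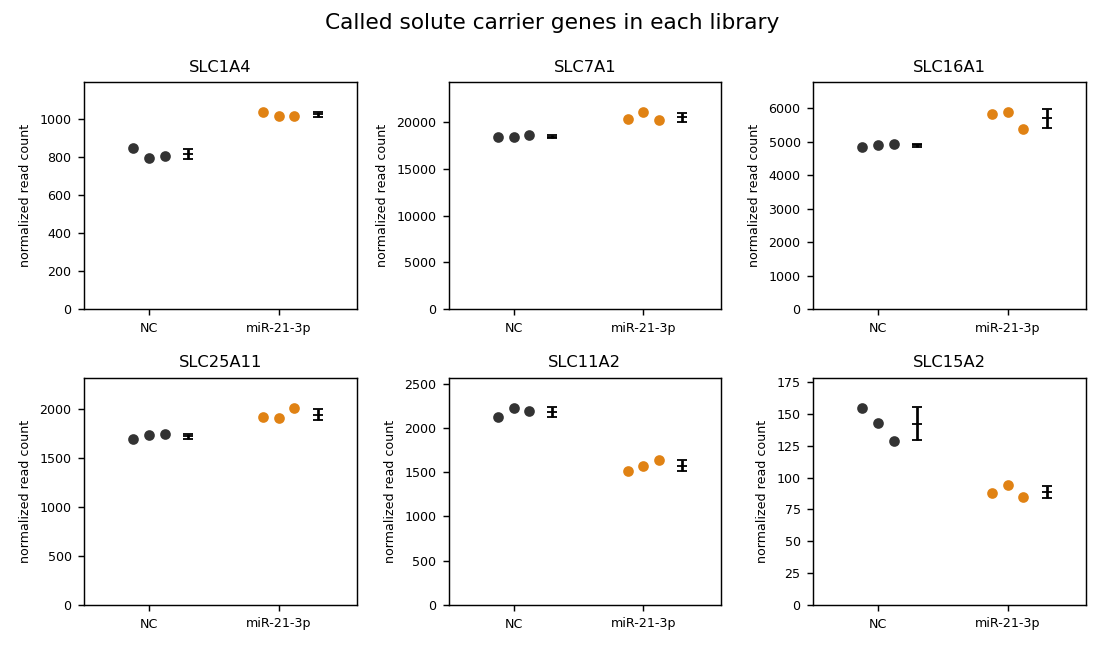
Normalized read count (y axis, from 0) of 6 called SLC genes in each NC mimic library (black) and each miR-21-3p mimic library (orange), with the group mean and SD beside the points. SLC11A2 stood at 2180 ± 55.7 with the NC mimic and 1573 ± 65.1 with the miR-21-3p mimic, a log2 fold change of -0.47, while the log2 fold changes of the 4 genes of the named families lay between 0.15 and 0.33.

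The other genes called lower lost their call without some of the libraries but kept their sign under every setting tried. SLC23A3, a member of the ascorbate carrier family, stood at 292, 212 and 203 against 156, 158 and 155. NC replicate 1 was the high library, and the call was lost without it and without miR-21-3p replicate 1 or 3 (limma, adjusted p = 0.0193 with all libraries and from 0.00350 to 0.0769 over the 13 other settings). Its log2 fold change was -0.57 with all libraries, -0.41 without NC replicate 1, and -0.57 and -0.56 without miR-21-3p replicates 1 and 3. SLC47A2, which extrudes organic cations, stood at 438, 330 and 363 against 294, 272 and 254, again with NC replicate 1 highest. SLC22A20 stood at 949, 730 and 742 against 568, 579 and 674, with the same high library. Both calls were lost without NC replicate 1, NC replicate 3 or miR-21-3p replicate 1, and also without miR-21-3p replicate 3 for SLC47A2 and replicate 2 for SLC22A20. Without NC replicate 1 the log2 fold changes were -0.34 for SLC47A2 and -0.28 for SLC22A20, beside -0.45 and -0.40 with all libraries. SLC35A1, which brings CMP-sialic acid into the Golgi, stood at 376, 380 and 360 against 311, 292 and 281, and was lost without NC replicates 1 or 3 or miR-21-3p replicates 1 or 3 (limma, adjusted p = 0.0212 with all libraries). Its NC mimic libraries lay close together, and its log2 fold change of -0.34 stayed between -0.38 and -0.30 over the 13 other settings.

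Among the genes called higher, SLC4A7, a sodium bicarbonate cotransporter, stood at 313, 298 and 291 against 440, 389 and 405 (limma, log2 fold change 0.45, adjusted p = 0.00833). SLC27A4, a fatty acid transport protein, stood at 1960, 1980 and 1840 against 2320, 2190 and 2500 (limma, log2 fold change 0.28, adjusted p = 0.0129). In both genes every miR-21-3p mimic library was above every NC mimic library. SLC20A1, a sodium phosphate cotransporter, stood at 4810, 4540 and 4360 against 5470, 5380 and 5110 (limma, log2 fold change 0.22, adjusted p = 0.0180). Its groups did not overlap either. These 3 calls were lost without NC replicate 3 and without miR-21-3p replicate 1, and that of SLC27A4 also without miR-21-3p replicate 3.

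Other called genes were named after their values were seen. They were SLC44A2 (choline-like carrier), SLC19A1 (reduced folate carrier), SLC31A1 (copper importer), SLC29A1 (nucleoside carrier) and SLC43A3 among the higher genes, and SLC41A2 (magnesium carrier) among the lower. Their log2 fold changes ran from 0.18 for SLC31A1 to 0.56 for SLC19A1, and SLC41A2 fell by 0.43 on the log2 scale. SLC19A1 stood at 114, 135 and 125 against 176, 160 and 222, and SLC41A2 at 153, 143 and 152 against 113, 96.3 and 124. In both genes the miR-21-3p mimic libraries spread more than the NC mimic libraries. Each of the 6 calls was lost without NC replicate 3 and without miR-21-3p replicate 1 or 3. The SLC19A1, SLC43A3 and SLC41A2 calls were also lost without NC replicate 1, and that of SLC41A2 without miR-21-3p replicate 2, with DESeq2 and with no filter on low values. With the replicate number as a block, the SLC44A2, SLC31A1, SLC43A3 and SLC41A2 calls were lost. The highest adjusted p over the 13 other settings ran from 0.0950 for SLC19A1 to 0.166 for SLC43A3.

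Levels were compared between genes per kilobase of merged exon. With the NC mimic the highest were SLC25A5 at 8933, SLC7A5 at 3962, SLC38A2 at 2691, SLC44A2 at 2633 and SLC7A1 at 2401 normalized reads per kilobase. The called genes SLC11A2 and SLC15A2 stood lower on this scale, at 215 and 22.9 normalized reads per kilobase with the NC mimic. Summed over members, amino acid carriers took 99753 ± 2004 normalized reads with the NC mimic and 103281 ± 1617 with the miR-21-3p mimic (SD, n = 3), and zinc carriers 31429 ± 279 and 30991 ± 527. Lactate carriers took 6756 ± 111 and 7382 ± 370.

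Near the floor of 50, SLC2A13, SLC22A14 and SLC25A33 were just inside with means of 51.9, 52.1 and 53.2 over the 6 libraries. SLC25A21, SLC25A41 and SLC8A1 were just outside with means of 48.4, 47.5 and 40.4. There were 6 members whose mean reached 50 in only 1 group, 4 with the miR-21-3p mimic and 2 with the NC mimic, and 0 of these were called by limma with all libraries. Under the other settings 3 of them were called: SLC9A4 by edgeR and without NC replicate 2, and SLC22A14 and SLC25A33 without miR-21-3p replicate 2.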

How the data were processed

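Polyadenylated RNA of HaCaT cells was measured in 3 NC mimic and 3 miR-21-3p mimic libraries, grouped by the labels. The labels give polyadenylated RNA and a stranded mRNA kit, whereas the study's methods speak of small RNA libraries for this experiment; the labels were followed. The submitters' processing notes name bcl2fastq 2.18.12, cutadapt 1.15, TopHat2 2.1.1, featureCounts, Subread 1.5.2 and DESeq2; the genome build, annotation and strand setting are not given in the sources used here. The deposited signal values are gene counts that the authors divided by a size factor per library and rounded to 3 significant digits. Reads that the rounding left whole were recovered by dividing by the value of 1 read; 100% of the low values came out whole within 0.1, while high values keep the rounding.

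The design assumed raw counts and named limma for normalized values, so limma 3.58.1 (R 4.3.3) with a trended prior was fitted on log2(value + 1) to 14782 genes that had a mean of at least 10, with Benjamini-Hochberg adjustment over all of them and calls at adjusted p under 0.05. Fold changes are on the log2(value + 1) scale, which understates changes of low genes. Alternatives were edgeR 4.0.16 (TMM factors, added after seeing the data, and RLE factors) and DESeq2 1.42.0 on the recovered reads, a pseudocount of 5, other filters, a replicate block, each library left out, member floors of 20 and 100, and adjusted p under 0.01. edgeR with TMM factors called 886 genes higher and 767 lower of 14792.

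Named genes were a list of well known carriers, the 6 called members of smallest p in each direction, up to 3 called members per family and direction, the 3 genes on either side of the floor, and partner genes where called. A result for 1 called gene is not reported here. Members and lists were chosen with earlier results of these data known. Exon lengths came from GENCODE v29 for 182 of 183 members, matched by gene identifier, and were used for levels per kilobase only. Promoter sequences came from RefSeq, and their motifs were chosen after the values were seen. Summaries and figures used Python 3.11.15, pandas 2.3.3, numpy 2.4.6 and matplotlib 3.10.9.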

Additional observations from a re-analysis of the deposited data

How the results depend on the processing

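Over the 39 genes followed, 419 fold changes under alternatives kept their direction and side of the threshold, 79 lost the call, 8 gained it and 1 reversed: SLC30A1, not called, had log2 fold changes from -0.0294 to 0.0152 with 1 library left out and was above 0 without NC replicate 3. The 3 SLC genes called under all 13 alternatives were SLC1A4, SLC11A2 and SLC15A2.

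At adjusted p under 0.01 the SLC calls were 2 higher and 2 lower, with 1 amino acid, 0 lactate and 0 SLC25 genes higher, and 138 higher and 105 lower over all genes. edgeR with TMM or RLE factors called 11 SLC genes lower, and 15 or 14 higher. Of the SLC calls by limma 65.0% were higher, against 57.7% by edgeR with TMM factors and 57.1% by DESeq2; over all genes the shares were 56.8%, 53.6% and 55.0%. DESeq2 called 0 SLC25 genes higher and 1 lower. Without a filter on low values 1 amino acid gene was higher. Member floors of 20 and 100 left 13 higher and 7 lower. The cause was not tested.

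With 1 library left out, which also leaves fewer samples, the counts ran from 1 to 22 for SLC genes higher and from 2 to 22 for SLC genes lower, 1 to 5 for amino acid genes higher, 0 to 1 for glucose genes higher, 0 to 1 for lactate genes higher and 0 to 1 lower, 0 to 4 for SLC25 genes higher and 0 to 1 lower, 98 to 1629 for all genes higher and 81 to 1334 lower.

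With the replicate number as a replicate block, 685 genes were higher and 517 lower, with 9 SLC genes higher and 7 lower, of which 1 amino acid gene and 0 SLC25 genes were higher. The calls of SLC7A1, SLC25A11, SLC31A1, SLC41A2, SLC43A3 and SLC44A2 were lost, SLC16A14 and SLC22A17 were gained, and no other SLC call changed. Deviations of same-numbered libraries from their group means correlated at -0.0435, -0.265 and -0.254 over 13619 genes. Within a group these deviations cancel for each gene, so the correlations are not independent of each other. They cannot decide whether the samples were paired. No library correlated best with the one of its own number: the highest values were 0.190 for NC replicate 1 with miR-21-3p replicate 2, 0.367 for NC replicate 2 with miR-21-3p replicate 3 and 0.185 for NC replicate 3 with miR-21-3p replicate 1. Whether the samples were paired under other numbers, and the source of these correlations, were not tested.

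In depth, 35 members had a mean under 200 normalized reads and rest on fewer reads than the others.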
